A study of Mus musculus with 8 samples.

Results

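CD11b-high and CD11b-low cells are the upper and lower ends of CD11b fluorescence among single LSK cells of mouse bone marrow. LSK cells carry Sca1 and cKit and hold the blood stem cells and the earliest progenitors. On each of 8 plates, the sequenced cells that had a sort record were ranked by CD11b, and the highest and the lowest 1 in 3 formed the arms, with 112 or 113 cells per arm and plate. This gave 903 CD11b-high and 903 CD11b-low cells of 2715, and 909 cells lay between. The arms were chosen by CD11b fluorescence, so it is described here with no test, while the RNA counts took no part in the choice.

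All cells came from bone marrow of Dach1-GFP mice, in which a biotin tag and an IRES-GFP cassette were added at the end of the Dach1 coding sequence in C57BL/6 embryonic stem cells and the neomycin cassette was removed with Flpe. The labels name no drug treatment, give no zygosity, and state an age of 8 to 16 weeks for the mice of the study. Both arms come from the same plates of this reporter line. Marrow was enriched for CD117 (cKit) on magnetic beads before sorting. The plates form a set of 4 named LC (plates 1 to 4) and a set of 4 named LCE (plates 5 to 8), and RNA was sequenced by CEL-seq2, a method that tags the 3' ends of polyadenylated RNA of each cell with a well barcode. The stains listed in the labels do not name CD11b or PIR-A, which are known here from the sort records. The labels do not tie plates to animals, so p-values rest on the plate-to-plate spread, part of which may be technical.

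CD11b is the integrin alpha M chain, encoded by Itgam. It pairs with the integrin beta 2 chain, encoded by Itgb2, to form Mac-1, which binds the complement fragment iC3b and ICAM-1 and serves adhesion and phagocytosis. Granulocytes, monocytes and macrophages carry it at high levels, so antibodies to CD11b are often part of the stains that set mature cells aside when stem and progenitor cells are sorted.

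The kept cells had a median of 11586 to 13398 counts in the LC set and 5626 to 7525 in the LCE set, and the plates held 2093860 to 5192543 counts in all. Depth differed little between the arms. The ratio of high to low was 1.01 for median counts per cell (exact sign-flip test over 8 plates, two-sided p = 0.648), 1.02 for median genes per cell (exact p = 0.148) and 0.998 for the mitochondrial share (exact p = 0.812), with adjusted p of 0.812, 0.445 and 0.812 over these 3 tests. Kit, which encodes cKit, stood at 242 ± 18.7 CPM in CD11b-high and 227 ± 35.5 CPM in CD11b-low cells (CPM, counts scaled to the total of the plate and arm; SD over 8 plates). Ly6a, which encodes Sca1, stood at 72.6 ± 15.9 and 57.2 ± 17.5 CPM, so both markers of the gate were present in both arms.

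The median CD11b of the high arm was 874 to 1228 in the LC set and 1812 to 1943 in the LCE set, in units of the sorter's linear scale. The low arm lay at 180 to 301 and at 397 to 445. The ratio of the medians was 4.09 to 4.94 on the 8 plates. The boundaries cut a continuous range. On plate 1 the last cell of the low arm had 335.91 and the next cell 337.06, while the first cell of the high arm had 624.57 and the cell before it 623.83. On plate 7, where that step was widest, these values were 1424.9 and 1391.5.

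Cells with more CD11b also had more of several other proteins that were stained. PIR-A, a receptor of myeloid and B cells recorded on the LCE plates, had 2.38 to 2.83 times the median in CD11b-high cells and followed CD11b most closely across cells (Spearman correlation 0.59 to 0.63 within a plate, 336 to 340 cells each). CD16/32, the low-affinity receptors for IgG, was 1.76 to 2.03 times higher (correlation 0.40 to 0.48), and side scatter, which reads granularity, was 1.21 to 1.30 times higher. Forward scatter, which reads size, differed least of these 4 channels, by 1.03 to 1.07 times. These correlations share the well, the laser and any overlap of dyes, and none of those was separated here.

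On all 8 plates Sca1 was higher in CD11b-high cells, by 1.78 to 3.29 times, and so was Dach1-GFP, by 1.14 to 1.87 times in the LC set and 2.27 to 3.62 times in the LCE set. The channel named PI was higher on 8 of 8 plates as well, with medians of 98.6 to 1081 in the high and -33.6 to 852 in the low arm. CD48, which is carried by multipotent progenitors and not by most long-term stem cells, went the other way on 4 of 4 LCE plates, at 0.705 to 0.869 times the median of the low arm. CD135, the FLT3 receptor, was higher on 4 of 4 LC and 2 of 4 LCE plates. For cKit the ratio was 0.962 to 1.05 in the LC set, higher on 2 of 4 plates. In the LCE set it was 1.10 to 1.19, higher on 4 of 4. CD150, a stem cell marker, was higher on 4 of 8 plates, and IL7R, the interleukin-7 receptor, on 2 of 8.

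**Figure D1:**
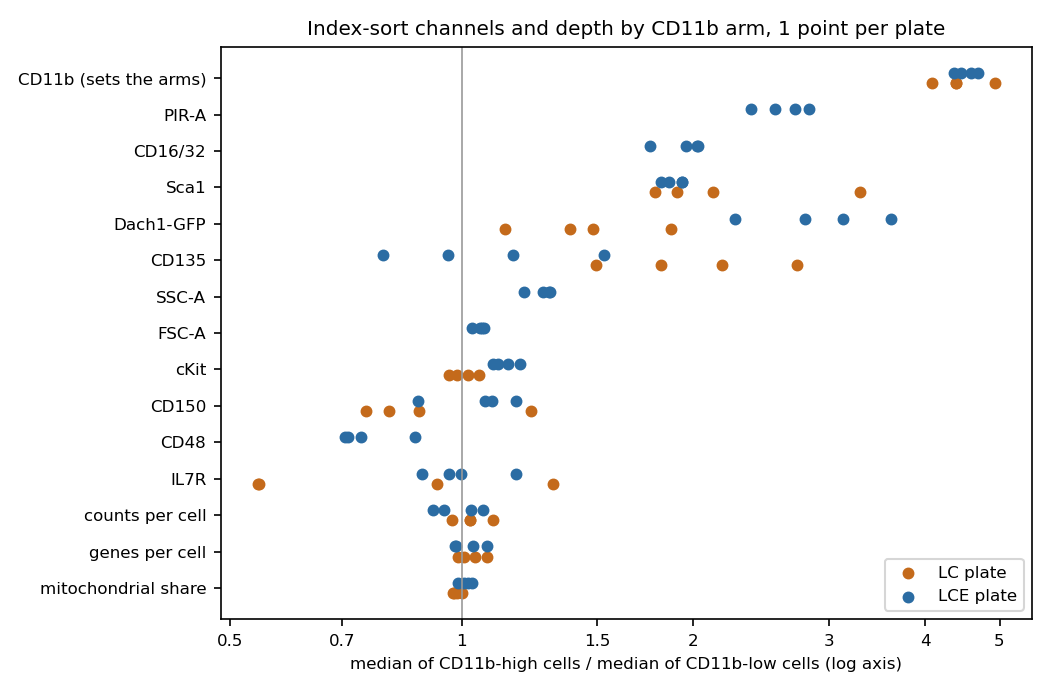
Each point is 1 plate, and the horizontal log axis gives the median of a channel in CD11b-high cells over its median in CD11b-low cells, for the sorted proteins, both scatters and 3 measures of depth. PIR-A, CD16/32, Sca1 and Dach1-GFP lie above 1 on every plate recorded, CD48 lies below 1, and the measures of depth lie within 0.919 and 1.10. The channel named PI is left out because its median was below 0 in the low arm of plates 2 and 3.

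The RNA of CD11b itself separated the arms weakly. Itgam ran from 12.4 to 30.9 CPM over the 8 plates in CD11b-high cells (median 20) and from 6.53 to 33.2 CPM in CD11b-low cells (median 16.97). The ranges overlapped, and Itgam was higher in the high arm on 5 of 8 plates. The log2 ratio was 0.35 ± 0.52 (SD, n = 8 plates, pseudocount 1 CPM, exact sign-flip p = 0.109), and edgeR gave 0.30 ± 0.19 (SE, adjusted p = 0.69 over all genes). Of CD11b-high cells 14.2% had an Itgam count (95% exact interval 12.0% to 16.6%), of the middle cells 13.3% and of CD11b-low cells 12.3% (10.2% to 14.6%). Even the highest 1 in 10 by CD11b had a share of 13.6% (9.73% to 18.2%), and cells with B lineage RNA, which should lack Itgam, had 10.3% (6.41% to 15.5%). The intervals cover counting error only, and median depth was 8943 counts in CD11b-high, 8565 in CD11b-low and 7920 in the B lineage cells. At this depth the intervals of all these groups overlapped. Some of the groups share cells, all were pooled over plates, and no test was run between them.

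The partner chain followed the same course. Itgb2 stood at 19.9 ± 7.26 CPM in CD11b-high and 18.4 ± 5.47 CPM in CD11b-low cells (log2 difference, high minus low, 0.09 ± 0.19, adjusted p = 0.94, higher on 5 of 8 plates).

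For the other stained proteins, the transcript had the direction of the protein in some cases and no steady direction in others. None of the transcripts that passed the filter on low counts was called. Dach1 RNA was 31.1 ± 14.3 CPM in CD11b-high and 28.9 ± 13.6 CPM in CD11b-low cells (0.07 ± 0.15, adjusted p = 0.94), although GFP from the same transcript was higher on 8 of 8 plates. Ly6a was higher by 0.32 ± 0.11 (adjusted p = 0.28), on 4 of 8 plates. Cd48 differed by -0.27 ± 0.08 (adjusted p = 0.072) and was lower on 7 of 8 plates. Fcgr3, which encodes CD16, differed by 0.73 ± 0.24 (adjusted p = 0.17) and was higher on 8 of 8 plates. Fcgr2b, which encodes CD32, stood at 13.6 ± 5.08 and 13.2 ± 6.88 CPM (-0.02 ± 0.22, adjusted p = 0.99) and was higher on 4 of 8 plates. Flt3 differed by -0.03 ± 0.07 and Kit by 0.08 ± 0.06 (adjusted p = 0.94 and 0.74). Pira2, a PIR-A gene, was too low to be tested and stood at 3.25 ± 2.005 against 1.99 ± 2.025 CPM, higher on 6 of 8 plates. On the LCE plates, where PIR-A was recorded, Pira2 was higher on plates 5 and 7 and lower on plates 6 and 8. It had 1 to 4 counts per arm there. Pirb, a related gene, was also too low and stood at 5.47 ± 2.86 against 2.63 ± 2.16 CPM. Il7r was also below the filter on low counts and stood at 3.10 ± 2.61 CPM in CD11b-high and 15.7 ± 8.38 CPM in CD11b-low cells, lower on 8 of 8 plates. With no filter it differed by -2.31 ± 0.32 (adjusted p = 2.64e-10).

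Across all genes, 87 of 10186 differed between the arms (edgeR quasi-likelihood test with the plate as a block, adjusted p under 0.05), which is 0.854% of those tested. They were 35 genes higher (0.344%) and 52 lower (0.511%) in CD11b-high cells. At an unadjusted p under 0.05 there were 952. The differences were mostly small. The median log2 difference was 0.43 among the genes called higher and -0.56 among those called lower, against -0.0041 over all genes tested, and only 2 of the higher and 15 of the lower genes passed 1 on the log2 scale. For 49 of the 87, the sign was the same on 8 of 8 plates. Without the plate block 0 genes were called (243 at an unadjusted p under 0.05), and DESeq2 with the block called 22, all of them among the 87. Robust estimation of the dispersion, which lets genes of unusual spread keep more of it, called 80 (0.785%), 32 higher (0.314%) and 48 lower (0.471%).

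Of 16 stem cell genes tested, 4 were higher and none lower, and 15 had a positive difference (median 0.27). Without cells that carried RNA of other lineages, 2 of 17 were higher (median 0.27). With cells ranked by the part of CD11b not predicted from 6 other proteins, 1 of 17 was higher (median -0.02). Of 30 genes of granulocyte and monocyte priming, 8 were higher and 3 lower (median 0.09). On the LC plates alone it was 2 and 2 of 31 (median 0.07), beside 0.115% and 0.0888% of all genes. On the LCE plates alone it was 5 and 2 of 23 (median 0.21), beside 0.407% and 0.674%. Without cells that carried RNA of other lineages it was 1 and 2 of 29 (median 0.05). Of 24 lymphoid priming genes, none was higher and 7 were lower (median -0.28), and of 14 B lineage genes none was higher and 10 were lower (median -1.22). Set beside 0.344% and 0.511% of all genes, these shares are high, but the lists were chosen with earlier results of these data known.

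**Figure D2:**
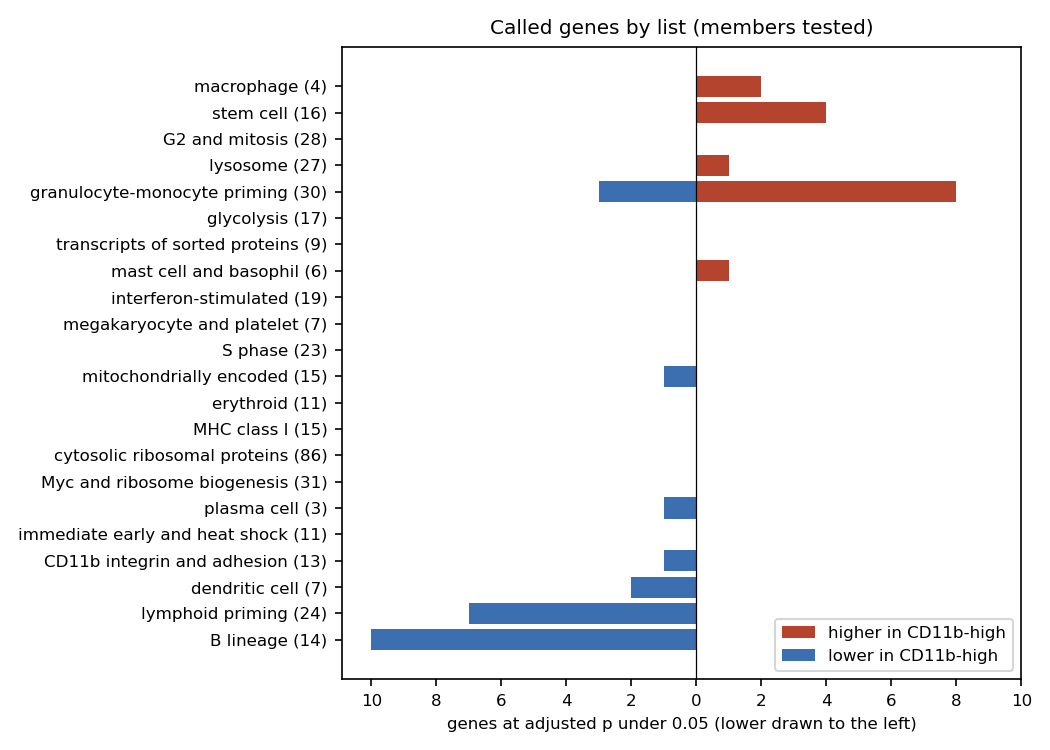
Bars count the genes of each list at an edgeR adjusted p under 0.05, higher in CD11b-high cells to the right and lower to the left, with the number of members tested in parentheses and the lists ordered by their median log2 difference. The B lineage list has 10 genes lower, the lymphoid priming list 7 lower, and the granulocyte-monocyte list 8 higher and 3 lower.

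The steadiest gene of the high end was Hlf, which encodes a transcription factor of blood stem cells. Its level in CD11b-high cells ran from 229 to 502 CPM over the 8 plates (median 329), and in CD11b-low cells from 127 to 293 CPM (median 212). The arms overlapped between plates, but on every plate the high arm was above the low one. The log2 difference was 0.66 ± 0.05 (edgeR adjusted p = 1.49e-17), with 0.64 for the LC set and 0.69 for the LCE set fitted alone. The middle cells stood at 250 ± 98.0 CPM. Among the highest 1 in 10 by CD11b against the same low arm the difference was 0.92 (edgeR adjusted p = 3.61e-14). In cells thinned to 3000 counts, with 108 to 113 cells left per arm and plate, 57.2% ± 12.0 of CD11b-high, 50.2% ± 13.3 of middle and 43.1% ± 11 of CD11b-low cells had a Hlf count (SD over plates), and without thinning the high and low shares were 83.9% and 72.8%.

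Of the other stem cell genes that were called, Ifitm1, a membrane protein gene induced by interferon and high in stem cells, stood at 277 to 548 CPM in CD11b-high (median 412) and 201 to 456 CPM in CD11b-low cells (median 322). It was higher on 8 of 8 plates, by 0.31 ± 0.05 (adjusted p = 2.76e-06). Mecom, which encodes the stem cell regulator EVI1, stood at 43.4 ± 8.30 and 30.8 ± 6.41 CPM (0.50 ± 0.14, adjusted p = 0.046) and was higher on 7 of 8 plates. Its call held only without plate 5 and was lost when any of the other 7 plates was left out (adjusted p up to 0.19). Apoe, a lipid carrier gene of stem cells and macrophages, stood at 68.0 ± 21.4 and 46.9 ± 17.4 CPM (0.53 ± 0.11, adjusted p = 0.0023). Meis1, Nkx2-3 and Procr, further genes of stem cells, had differences of 0.23, 0.50 and 0.33 and did not pass (adjusted p 0.18 to 0.61).

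The granule protease genes Elane, Prtn3 and Ctsg of early granulocytes were also higher in CD11b-high cells by level. Elane, which encodes neutrophil elastase, stood at 679 to 1070 CPM in CD11b-high and 324 to 808 CPM in CD11b-low cells of the 4 LC plates. On LCE plates 6, 7 and 8 it stood at 81.5, 245 and 124 CPM in the high and 17.2, 59.7 and 23.3 CPM in the low arm, and it had no count on plate 5. So Elane was higher in the high arm on all 7 plates that had it, while its level differed far more between the sets than between the arms. The log2 difference was 0.74 ± 0.07 (adjusted p = 5.84e-14), and 0.65 to 0.87 when 1 plate was left out. With the robust dispersion the adjusted p was 0.26. The share of cells with an Elane count, thinned to 3000 counts, was 35.8% ± 30.3 in the high and 35.1% ± 30.8 in the low arm, higher on 5 plates and lower on 2 (55.5% and 53.2% without thinning).

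Prtn3, the gene of proteinase 3, stood at 192 to 1501 CPM in CD11b-high (median 783) and 151 to 1409 CPM in CD11b-low cells (median 520). Ctsg, the gene of cathepsin G, stood at 60.0 to 682 CPM (median 324) and 42.9 to 648 CPM (median 204). Both were higher on 8 of 8 plates within a wide spread between plates, by 0.27 ± 0.04 (adjusted p = 1.36e-05) and by 0.35 ± 0.06 (adjusted p = 2.32e-05). With the robust dispersion their adjusted p was 0.41 and 0.12. The thinned share of cells with a Ctsg count was 37.6% ± 26.4 in the high and 37% ± 24.6 in the low arm, higher on 3 plates and lower on 5 (59.8% and 60.6% without thinning). Mpo, the myeloperoxidase gene, differed by 0.15 ± 0.05 and did not pass (adjusted p = 0.16).

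Gfi1, which encodes a repressor that guides granulocyte and stem cell fate, stood at 57.4 ± 16.3 and 38.1 ± 13.6 CPM (0.58 ± 0.12, adjusted p = 0.0025, higher on 7 of 8 plates) and kept its call whichever plate was left out. Ms4a3, a gene of granulocyte-monocyte progenitors, was higher on 7 of 8 plates (0.55 ± 0.13, adjusted p = 0.011). Its call was lost without plate 2 or plate 7 and with the robust dispersion (adjusted p = 0.52). Csf3r, the receptor for G-CSF, stood at 85.0 ± 11.4 and 64.1 ± 5.75 CPM and was higher on 8 of 8 plates (0.39 ± 0.10, adjusted p = 0.017), though not called without plate 1, 3 or 7. Lyz2, the lysozyme gene of myeloid cells, and Calr, a chaperone gene, were higher by 0.35 and 0.15 (adjusted p = 0.029 and 0.037; 0.62 for Calr with the robust dispersion). The call of Lyz2 held only without plate 6, and that of Calr only without plate 1 or plate 4.

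The 3 genes of this list that were lower were Irf8, Plac8 and F13a1. Irf8, which encodes a transcription factor of monocyte, dendritic and B cell fates, stood at 23.2 to 92.5 CPM in CD11b-high (median 56.8) and 55.3 to 176 CPM in CD11b-low cells (median 93.5). It was lower on 7 of 8 plates, by -0.87 ± 0.11 (adjusted p = 2.36e-08), and the exception was plate 5, with 64.5 and 62.7 CPM. With the robust dispersion its adjusted p was 0.17. Plac8, a gene high in lymphoid and monocyte progenitors, was lower on 8 of 8 plates by a small amount (-0.19 ± 0.04, adjusted p = 0.0011). F13a1, a monocyte gene, was lower on 5 of 8 plates (-0.90 ± 0.22, adjusted p = 0.017), and was not called with the robust dispersion (adjusted p = 0.071). The transcription factor genes Cebpa, Cebpb and Spi1 differed by 0.10, 0.03 and -0.04, with adjusted p of 0.91 to 0.98, and Csf1r, the M-CSF receptor, by -0.08 (adjusted p = 0.97).

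At the low end of CD11b the lymphoid priming genes stood out. Dntt, which encodes the terminal transferase of antigen receptor joining and marks early lymphoid priming, stood at 51.2 to 223 CPM in CD11b-high (median 161) and 103 to 533 CPM in CD11b-low cells (median 327). On every plate the low arm was above the high one, by 0.65 to 1.41 on the log2 scale. The log2 difference, high minus low, was -1.07 ± 0.06 (edgeR adjusted p = 3.19e-26), with -0.89 for the LC set and -1.23 for the LCE set alone. The middle cells stood at 196 ± 80.0 CPM. In cells thinned to 3000 counts a Dntt count was found in 31.7% ± 10.5 of CD11b-high, 33.2% ± 11.1 of middle and 41.3% ± 16.0 of CD11b-low cells, and in 55.8% and 65.0% of the high and low cells without thinning.

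Arpp21, a phosphoprotein gene of early lymphoid cells, stood at 11.2 ± 4.48 and 28.1 ± 11.9 CPM (-1.29 ± 0.20, adjusted p = 5.86e-06). Cmah, a sialic acid hydroxylase gene, stood at 14.4 ± 6.32 and 30.6 ± 17.1 CPM (-1.02 ± 0.19, adjusted p = 2.92e-04). Both were lower on 8 of 8 plates and kept their call whichever plate was left out. Satb1, a chromatin organizer of lymphoid cells, and Il12a, a cytokine subunit gene seen in lymphoid-primed progenitors, were lower on 7 of 8 plates (-0.29 ± 0.07 and -0.43 ± 0.10, adjusted p = 0.0085 and 0.011). Satb1 lost its call without plate 3, 7 or 8 and Il12a without plate 3 or 7. Bcl2, the survival gene, is named here after its value was seen. It was lower on 8 of 8 plates (125 ± 17.2 against 162 ± 15.4 CPM, -0.38 ± 0.07, adjusted p = 3.16e-04). Flt3, Mef2c, Ikzf1 and Bcl11a, which are shared by lymphoid and multipotent progenitors, differed by -0.03, -0.05, -0.05 and 0.03 (adjusted p 0.89 to 0.94).

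**Figure D3:**
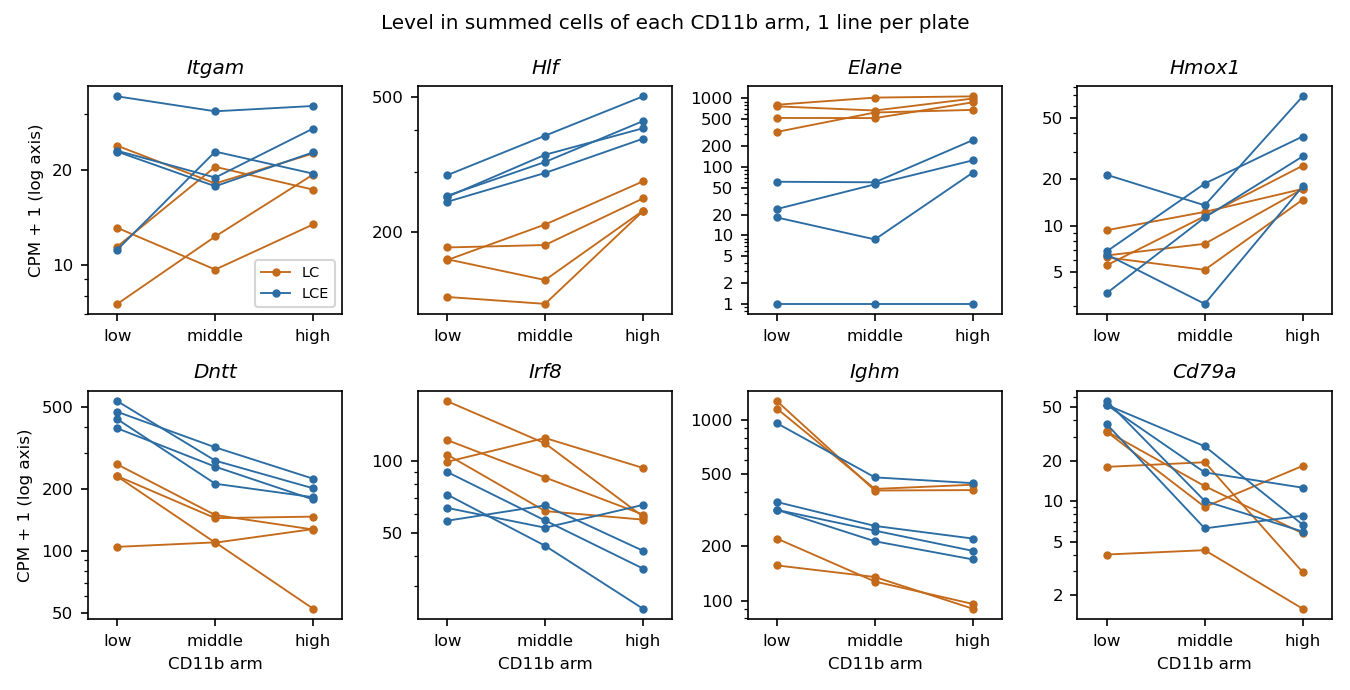
Each line joins the low, middle and high CD11b cells of 1 plate, with the level of the gene in CPM plus 1 on a log axis. On every plate the high arm lies above the low arm for Hlf and below it for Dntt, though the middle cells do not always lie between. Itgam shows no common slope. Elane lies at 324 to 1070 CPM on the LC plates and at 245 CPM or less on the LCE plates.

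Among the genes that passed the filter on low counts, immunoglobulin and B cell genes had the largest differences, and a few cells held much of them. Cd79a, a chain of the B cell receptor, stood at 0.582 to 17.3 CPM in CD11b-high (median 5.31) and 3.005 to 54.4 CPM in CD11b-low cells (median 34.1), lower on 8 of 8 plates (-2.29 ± 0.23, adjusted p = 9.29e-13). Ebf1, the factor that commits cells to the B lineage, and Vpreb1, a surrogate light chain gene, were lower on 7 of 8 plates (-1.69 ± 0.20 and -2.11 ± 0.27). Igkc, the kappa light chain gene, stood at 8.52 to 277 CPM (median 76.5) and 42.2 to 1028 CPM (median 327), lower on 8 of 8 plates (-2.26 ± 0.09, adjusted p = 7.72e-39). Ighm, the mu heavy chain gene, which lymphoid-primed progenitors transcribe before its rearrangement is complete, stood at 89.0 to 447 CPM (median 204) and 156 to 1274 CPM (median 334), also lower on 8 of 8 plates (-1.20 ± 0.06, adjusted p = 8.62e-32). Further B lineage genes called lower included Cd79b, Vpreb3, Blnk, Bank1 and Cd74, by -0.84 to -1.58. With the robust dispersion Vpreb3 and Cd74 were not called (adjusted p = 0.38 and 0.47), and Bank1 was not called without plate 5. Igkc and Ighm stayed called with the robust dispersion, with a wider SE of 0.20 and 0.12 (adjusted p = 0.0019 and 0.0038).

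A single well held 25.4% of the Igkc counts of both arms and 28.8% of those of Jchain, a gene of antibody-secreting cells. Jchain had the lowest difference of the genes that passed the filter (-2.35 ± 0.16, adjusted p = 1.98e-21) but was lower on only 4 plates and higher on 2. DESeq2 did not call it (adjusted p of 1). The 4 plates on which it was lower, plates 2, 4, 5 and 6, each held 1 CD11b-low cell with 50 or more Jchain counts. These 4 cells carried 59.7% of the Igkc, 66.5% of the Jchain and 32.6% of the Ighm counts of the arms. On those plates the CD11b-high cells had 132 to 277 CPM of Igkc, against 8.52 to 20.95 CPM on the other 4 plates. Whether RNA passed between wells was not tested.

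Cells with RNA of other lineages, among them the B lineage and macrophages, lay unevenly over CD11b. By rules on marker counts, 194 cells had 3 or more counts over Cd79a, Cd79b, Ebf1, Pax5, Igll1 and Vpreb1, and 107 of them were CD11b-low, 49 middle and 38 CD11b-high. They made 11.85% ± 3.70 of the low and 4.21% ± 1.62 of the high arm and were fewer in the high arm on 8 of 8 plates (exact sign-flip p = 0.0078, the smallest that 8 plates can give, adjusted p = 0.031 over 4 lineages). The 64 cells with 3 or more counts over C1qa, C1qb and C1qc, the complement genes of macrophages, lay the other way, with 53 CD11b-high, 8 middle and 3 CD11b-low. They made 5.87% ± 4.91 of the high and 0.332% ± 0.458 of the low arm and were more frequent in the high arm on 7 of 7 plates that had any (exact p = 0.016, adjusted p = 0.031). Their share of the high arm was 6.19% to 14.2% in the LC set and at most 3.54% in the LCE set. The rules use fixed counts with no correction for depth, and LC cells had more counts per cell. Whether depth set this difference between the sets was not tested. The 6 cells with 10 or more counts of neutrophil granule genes were all CD11b-high, on plates 3 and 4, and the 4 Jchain cells were all CD11b-low (exact p = 0.50 and 0.13). These tests were chosen after earlier results were seen.

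Of 4 macrophage genes tested, Hmox1 and Apoe were higher in CD11b-high cells and none was lower, beside 0.344% of all genes, and without the cells of other lineages 0 of 3 were called. Hmox1, which encodes heme oxygenase 1 of macrophages that recycle red cells, stood at 13.8 to 68.1 CPM in CD11b-high (median 20.2) and 2.65 to 20.4 CPM in CD11b-low cells (median 5.45). It was higher on 8 of 8 plates and had the largest difference of the genes called higher (1.80 ± 0.23, adjusted p = 1.36e-08). Cells of the other lineages held 30.3% of its counts. Once they were left out it was too low to be tested, at 21.4 ± 16.97 against 6.70 ± 5.59 CPM and higher on 8 of 8 plates. C1qa, C1qb, C1qc, Vcam1 and Slc40a1, genes of the same kind of macrophage, were below the filter and differed by 1.75 to 2.59 with no filter (adjusted p of at most 2.77e-07). Not every macrophage marker had a higher mean. Cx3cr1 stood at 1.02 ± 1.25 against 1.79 ± 1.83 CPM, lower on 5 of 8 plates, while Cd163 differed by 0.40 with no filter and did not pass (adjusted p = 0.94). S100a8 and S100a9, granule genes of mature neutrophils, differed by 1.96 and 2.84 with no filter, and S100a9 stood at 40.1 ± 102 against 5.10 ± 11.6 CPM. Over the 19 of 20 macrophage markers that had counts, the summed level was 185 to 440 CPM in the high and 128 to 189 CPM in the low arm. Of these 19 markers only Vsig4 had no count in the high arm.

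The comparison was repeated without the 265 cells that met any of these rules, with the arms formed anew from the rest (96 to 105 cells per arm and plate). Then 38 of 10014 genes were called (0.379%), 20 higher (0.2%) and 18 lower (0.18%), and 26 of the 38 were among the 87, all with the same sign. Hlf (0.68 ± 0.05), Ifitm1, Elane (0.65), Ebi3, Oas2, Tnip3, Mettl27, Sept8, Nfat5 and Adgrl4 remained higher, the last 2 named after their values were seen. Dntt (-1.08 ± 0.06, adjusted p = 4.69e-23), Arpp21, Irf8, Cmah, Satb1, Bcl2, Il12a and Plac8 remained lower. Ighm remained lower by -0.30 (adjusted p = 0.0055), against -1.20 with all cells. Igkc, Jchain and Cd74 were at -0.16, -0.10 and 0.04 and were no longer called, and none of the 7 B lineage genes still tested passed, which the rule that removed the cells partly sets. Ly6a, not called with all cells, was higher by 0.61 ± 0.13 (adjusted p = 0.0035), together with 6 Hist1h2a genes, whose near-identical copies may share counts. Prtn3 and Ctsg were higher by 0.17 and 0.27 and did not pass (adjusted p = 0.30 and 0.072). Apoe, Gfi1 and Csf3r did not pass either (adjusted p = 0.35, 0.10 and 0.30). Mecom also lost its call, at 46.1 ± 9.39 against 33.45 ± 8.21 CPM and higher on 7 of 8 plates.

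**Figure D4:**
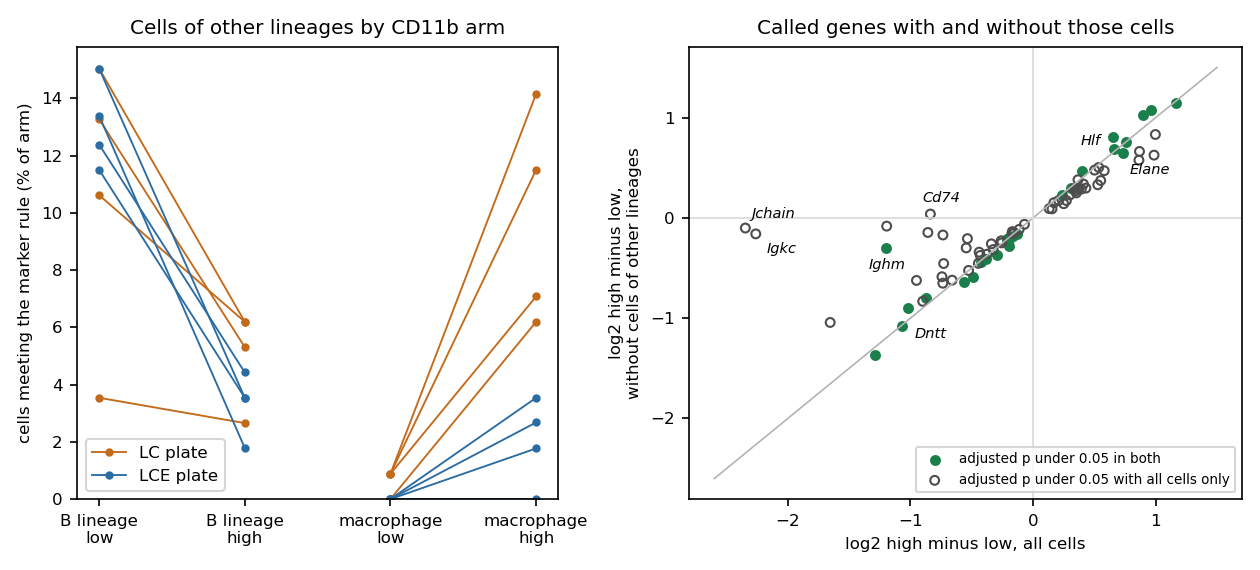
The left panel joins the share of cells in the CD11b-low and CD11b-high arm of each plate that met the B lineage or the macrophage rule. The right panel sets the log2 difference of the 79 called genes that could be tested again, with all cells on the horizontal and without cells of other lineages on the vertical axis, and a line of equality. Dntt, Hlf and Elane lie near the line, while Igkc, Jchain and Cd74 lie near 0 on the vertical axis.

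Some of the largest rises fell outside these lists. Oas2, a sensor of double-stranded RNA induced by interferon, stood at 15.7 ± 5.41 and 7.36 ± 5.11 CPM (1.17 ± 0.26, adjusted p = 0.0055, higher on 7 of 8 plates, not called without plate 2). None of the 19 interferon-stimulated genes tested was called (median 0.06). Ebi3, a cytokine subunit gene, stood at 33.1 ± 10.3 and 19.2 ± 11.6 CPM (0.89 ± 0.18, adjusted p = 0.0012, higher on 8 of 8 plates) and kept its call whichever plate was left out. Il18, a cytokine gene (0.99), Tnip3, an inhibitor of NF-kappa-B signalling (0.97), Ptgs1, the cyclooxygenase 1 gene (0.87), and Gpr160, an orphan receptor gene (0.998), were higher with adjusted p of 0.0095 to 0.044. Of these, Il18 kept its call only without plate 1, Tnip3 lost it without plate 7, Ptgs1 without plate 3 and Gpr160 without plate 3, 4 or 5. Hdc, the histamine synthesis gene of mast cells and basophils, was higher by 0.86 ± 0.22 (adjusted p = 0.022). It was the 1 gene called of 6 mast cell and basophil genes tested, beside 0.344% of all genes called higher. Without cells of other lineages 0 of 6 were called. Hdc was tested in 4 of the 8 fits that leave a plate out and called in 1 of them. Cd63, a lysosomal membrane gene that shares sequence with a pseudogene, was higher by 0.41 ± 0.09 (adjusted p = 0.0048, not called without plate 7). It was the 1 gene called of 27 lysosome genes tested, beside 0.344% of all genes called higher. Without cells of other lineages 0 of 27 lysosome genes were called.

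Ly6d, Ighd and Ly86 were also lower in CD11b-high cells. Ly6d, a gene of B lineage and plasmacytoid dendritic progenitors, differed by -1.997 ± 0.28 (5.02 ± 4.14 against 23.8 ± 16.3 CPM, adjusted p = 2.48e-07). Ighd, the delta heavy chain gene, and Ly86, which encodes the MD-1 partner of a receptor on B cells, differed by -1.66 ± 0.22 and -0.95 ± 0.18. All 3 were lower on 8 of 8 plates. Cells of the other lineages held 65.6% of the Ly6d and 47.2% of the Ighd counts. With Irf8, Ly6d made the 2 genes lower of 7 dendritic cell genes tested, beside 0.511% of all genes. Without cells of other lineages, 1 of 5 dendritic cell genes was lower.

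Several programmes showed little or no called difference between the arms. None of 23 S phase genes (median 0.02), 28 genes of G2 and mitosis (median 0.12), 31 genes of Myc and ribosome biogenesis (median -0.04), 17 glycolysis genes (median 0.07), 15 MHC class I genes (median -0.02) and 86 cytosolic ribosomal protein genes (median -0.04) was called. The same was true of 11 erythroid, 7 megakaryocyte, and 11 immediate early and heat shock genes. Of the T and NK cell list 2 genes passed the filter and neither was called. With no filter, however, Trbc1, a T cell receptor gene, was lower in CD11b-high cells (4 against 36 counts, -3.14 ± 0.76, adjusted p = 0.010, lower on 6 plates and higher on 0), while Trbc2 (4 against 25 counts) and Cd2 (2 against 20 counts) did not pass (adjusted p = 0.39 and 0.59). Of 15 mitochondrially encoded genes only the ribosomal RNA mt-Rnr1 was called, by -0.07 ± 0.02 (adjusted p = 0.043), a call that held in only 1 of the 8 fits that leave a plate out. The test was also run on simulated counts of 9976 genes with the same depth and 1 fixed dispersion for every gene. There, 92.9% of genes changed by 1 and 32.6% of those changed by 0.5 on the log2 scale were recovered. So differences of the smaller size would often be missed. Genes differ in their spread in the data, so these shares need not hold for each of them.

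**Figure D5:**
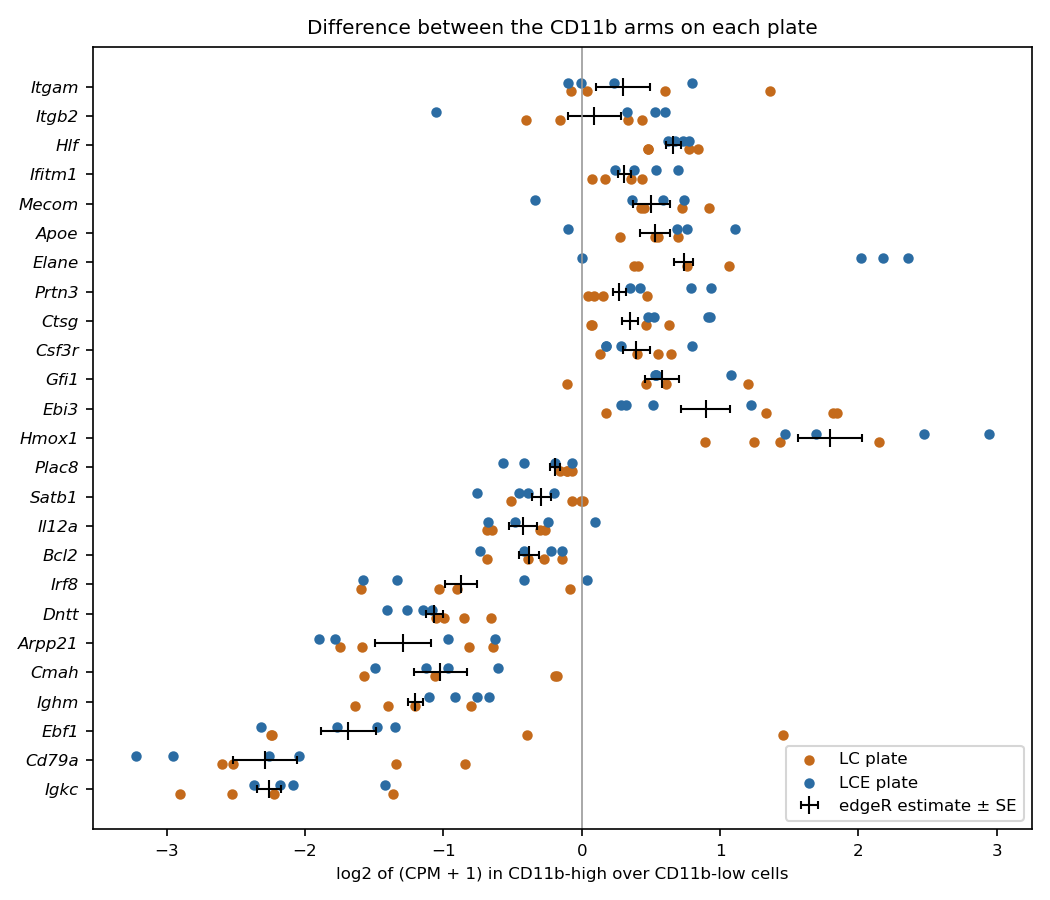
Points give the log2 ratio of CPM plus 1 in CD11b-high over CD11b-low cells on each plate, LC plates in orange and LCE plates in blue, and the black mark gives the edgeR estimate with its standard error. All 8 points of Hlf lie right of 0 and all 8 points of Dntt, Ighm and Igkc left of 0, while those of Itgam and Itgb2 lie on both sides.

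The arms differed in many other stained proteins, so the comparison was repeated with cells ranked by the part of CD11b not predicted, by rank within the plate, from Dach1-GFP, CD135, CD150, Sca1, cKit and IL7R. Then 52 of 10289 genes were called (0.505%), 36 higher (0.35%) and 16 lower (0.156%), and 24 of them were among the 87. Elane (1.10 ± 0.07), Prtn3 (0.45), Ctsg (0.54) and Hmox1 (1.99) were higher by at least as much as before, and Mpo was now called (0.35 ± 0.05). Hlf was still higher but by 0.31 ± 0.05, and Mecom and Ifitm1 were at 0.07 and 0.09 and not called. Dntt stayed lower (-0.90 ± 0.06, adjusted p = 9.63e-20), as did Arpp21, Satb1, Il12a and Bcl2. Of the B lineage list only Igkc passed (-1.14), and the median of its 12 genes tested moved to 0.35. Erythroid genes, of which none was called in the first comparison, now had 7 called higher of 12 tested, among them Car1, a carbonic anhydrase gene (2.21 ± 0.16, adjusted p = 5e-18). With the channel named PI added to the 6 proteins, 1 of 11 erythroid genes tested was higher, Car1 (1.45 ± 0.20). In that fit 22 of 10374 genes were called higher.

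On the LCE plates, where PIR-A and CD16/32 were recorded, ranking by the part of CD11b not predicted from these 2 proteins left 29 of 8645 genes called (0.335%), 11 higher (0.127%) and 18 lower (0.208%), against 93 of 8610 (1.08%) for CD11b itself on the same plates. Elane (2.19 ± 0.18), Ctsg (0.86), Prtn3 (0.58), Mpo (0.45), Hlf (0.56) and Ifitm1 (0.36) were higher. The other 5 genes called higher were erythroid, of 9 erythroid genes tested, namely the globin genes Hba-a1 (2.27), Hba-a2 (1.83), Hbb-bs (1.26) and Hbb-bt (1.11), whose similar copies may share counts, and Car2 (0.27). Dntt (-0.53 ± 0.07) and Cd48 (-0.55) were lower. So were 8 of the 15 B lineage genes tested, among them Cd79a (-1.48), Igkc (-1.21), H2-Eb1 (-1.06), Cd74 (-1.04), Cd79b (-0.89), Ebf1 (-0.81) and H2-Ab1 (-0.49). Outside that list Ly6d (-1.70), Jchain (-1.47), Ighd (-1.27) and Ighm (-0.56) were lower as well. Irf8 was at -0.19 and not called (adjusted p = 0.93). With all 12 other channels taken into account, 4 of 8681 genes were called, all higher and all of granulocyte granules, Elane (2.04 ± 0.19), Ctsg (0.70), Mpo (0.62) and Prtn3 (0.52). Robust dispersion, with which Elane, Prtn3 and Ctsg were not called in the first comparison, was not run on these rankings of cells. Plate 5 of this set had no Elane count. The counts of genes under these settings come from partly different cells. Matching the arms on forward scatter on the LCE plates left 97 of 8634 genes called (1.12%), 35 higher (0.405%) and 62 lower (0.718%), of which 49 were among the 87.

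Fitted alone, the LC plates called 23 of 11265 genes (0.204%), 13 higher (0.115%) and 10 lower (0.0888%). The LCE plates called 93 of 8610 (1.08%), 35 higher (0.407%) and 58 lower (0.674%). All 86 of the 87 genes that could be tested on the LC plates, and all 80 on the LCE plates, had the same sign as in the joint fit. A test of the difference between the sets called 7 of 10186 genes (0.0687%), all with a larger value on the LCE plates. Elane had the clearest one, with 0.61 for the LC set and 2.14 for the LCE set (difference 1.54 ± 0.19, adjusted p = 2.62e-08), and Prtn3 had 0.17 and 0.63 (0.46 ± 0.09, adjusted p = 0.0091). Of the 7, Pf4, Gm11336 and Hist1h2ap, none of them among the 87, differed in sign between the sets, at -1.35 and 0.77, -0.02 and 0.28, and -0.02 and 0.23 for the LC and the LCE set. The difference in Elane was called whichever plate was left out, and that in Prtn3 was lost without plate 4, 7 or 8. Both genes were lower on the LCE plates, where Prtn3 stood at 151 to 452 CPM in the arms against 804 to 1501 CPM on the LC plates. With the robust dispersion neither difference was called (adjusted p = 0.76 and 0.19). With all cells thinned to 3000 counts, 0 genes differed between the sets.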

How the data were processed

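Single LSK cells of 8 plates were sequenced by CEL-seq2 and indexed by flow cytometry. The deposited tables hold gene counts per well, and the deposited sort record holds fluorescence intensity per well on a linear scale. How reads were aligned, and whether molecular tags were collapsed, is not given in the sources used here. GRCh38 stands in the submitters' processing notes, while the gene IDs are of mouse. Genes without a row on a plate were taken as 0, since no row of any plate was without counts.

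Wells with 1000 or more counts over genes and 500 or more genes, joined to the sort record, were kept (2715 of 2987). Each well holds 1 sorted cell, so no doublet caller was run. Symbols were found for 27249 of 27318 IDs. Counts were summed per plate and arm and tested with edgeR 4.0.16 in R 4.3.3 (filterByExpr, TMM, quasi-likelihood test) with the plate as a block and Benjamini-Hochberg adjustment over all genes tested, at 0.05. The block is the plate from which both arms come, and their deviations within a set correlated at 0.171 to 0.416 on each plate. Values of log2 difference are high minus low with their SE, and log2 ratios per plate used a pseudocount of 1 CPM. DESeq2 1.42.0, robust dispersion and other arms served as alternatives.

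Members and lists were chosen with earlier results of these data known. Named genes were the transcripts of sorted proteins, up to 15 genes each way with the largest difference and the same sign on at least 7 plates, up to 4 genes per list by smallest p, and up to 5 for the difference between sets. Others were named after their values were seen, among them further genes of the lists, Il7r, the complement genes and those that leave a list's count at 5 or fewer. Genes with near-identical copies (histones, globins, Ly6 genes, immunoglobulin segments, Cd63) may share counts. Values of some genes are not reported here. The test was run on simulated data first.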

Additional observations from a re-analysis of the deposited data

Results flagged for a closer look

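In 10 of 125 groups of values over plates that were tested, 1 plate lay far from the rest. Chance gives about 1 in 20. For the log2 ratio of high over low, Ptgs1 and Sept8 stood at 2.48 and 2.35 on plate 3, Nop56 at -0.61 on plate 2, and Mecom at -0.34 on plate 5. Pfkm stood at -0.92 on plate 7. On plate 8 Itgal stood at 1.17, Cox6a2 at -3.48 and mt-Rnr1 at -0.22. For the log2 ratio of medians, plate 1 stood apart in Sca1 (1.72) and in the channel named PI (4.32). The PI scale runs below 0, so plates 2 and 3 give no ratio, and on plate 1 the ratio is taken over a low-arm median of 4.94.

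The difference between sets (LCE minus LC, log2) passed the edgeR test for 7 genes. It was 1.54 for Elane, 0.46 for Prtn3, 0.84 for Igkc and 0.48 for Ighm. For Pf4, a platelet gene with 35% of its counts in 1 CD11b-low cell of plate 4, it was 2.15, and 0.21 without cells of other lineages. For the histone genes Gm11336 and Hist1h2ap it was 0.30 and 0.25. Igkc was at 0.43 without plate 5. Without cells of other lineages the difference was 1.99 for Elane, 0.62 for Prtn3, 0.32 for Igkc, -0.09 for Ighm, 0.61 for Gm11336 and 0.54 for Hist1h2ap.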

How the results depend on the processing

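The 87 called genes (35 higher, 52 lower) kept their sign, wherever they could be tested, with DESeq2, without TMM, with no filter on low counts, with the robust dispersion, on either set alone, with 1 in 2 or 1 in 5 cells per arm or the highest 1 in 10, with arms matched on size or counts, in thinned cells and whichever plate was left out. The pairing of arms by plate mattered for the count. With no replicate block 0 genes were called, 0 higher and 0 lower (243 at an unadjusted p under 0.05), with DESeq2 22 (4 and 18), on the LC plates alone 23 (13 and 10) and in cells thinned to 3000 counts 26 (13 and 13). Without cells of other lineages 38 were called (20 and 18), with 1 in 2 cells per arm 20 were higher, and with the highest 1 in 10 45 were called, 20 of them lower. With CD11b taken beyond 6 proteins 52 were called, 16 lower, beyond these and PI 32 (22 and 10), beyond PIR-A and CD16/32 29 (11 and 18) and beyond all 12 channels 4 (4 and 0). Leaving out 1 plate gave 52 to 95 called genes, 20 to 42 higher and 32 to 53 lower, lowest without plate 7. With no filter 126 were called. The cause of these shifts was not tested, beyond the fewer plates or cells that some of them hold.

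Of the called genes that could be tested, 9 of 86 turned sign beyond 6 proteins, 7 of 85 with PI added, 5 of 81 beyond PIR-A and CD16/32, 17 of 80 beyond all 12 channels and 1 of 79 without other lineages. Among the genes named, those that turned sign beyond 6 proteins were Vpreb1 0.40, Ebf1 0.68, Vpreb3 0.34, Cd74 0.48, Cd79b 0.06, Blnk 0.01, Car1 2.21 and Blvrb 0.84, and with PI added Vpreb1 0.20, Ebf1 0.55, Cd74 0.68, Blnk 0.05 and Car1 1.45. Beyond PIR-A and CD16/32, Apoe was at -0.08 and Lyz2 at -0.01. Beyond all 12 channels, Ptgs1 was at -0.07, Mettl27 -0.02, Mecom -0.22, Vpreb1 0.87, Ebf1 0.70, Vpreb3 0.55, Cmah 0.13, Irf8 0.16 and Blnk 0.47. With CD11b taken beyond both scatters, Gm11336 and Hist1h2ap were at -0.36 and -0.36, and without other lineages Cd74 was at 0.04.

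The 7 genes differing between sets were 0 in thinned cells, 2 with the robust dispersion, 12 without other lineages and 2 to 12 with 1 plate left out (2 without plate 2 or plate 8, 3 without plate 4, 4 without plate 6, 12 without plate 3). Leaving out 1 plate moved the log2 ratio of Itgam between 0.211 and 0.420, of counts per cell between -0.004 and 0.033, of genes per cell between 0.023 and 0.042 and of the mitochondrial share between -0.009 and 0.002. The counts turned sign without plate 4, and the mitochondrial share without plate 2 (0.000), plate 3 or plate 4 (0.002 each). Residuals, robust dispersion and the removal of other lineages for the set difference were chosen after seeing the data.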
